A study of Drosophila melanogaster with 2 samples.

Results

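The cytosolic ribosomal protein genes were taken as the genes of the Ensembl annotation of the dm6 fly genome whose symbols begin with RpL, RpS or RpLP and a digit, together with sta, which codes for the small-subunit protein uS2. The rule found 93 of the 13945 protein-coding genes on chromosomes 2L, 2R, 3L, 3R, X and 4, and it used no measured value. Of these, 39 are named for proteins of the small subunit and 54 for proteins of the large subunit, and together they have 158 annotated transcription start sites. The data are anti-GFP ChIP-seq peaks from whole Drosophila melanogaster pupae aged 24 h. The flies were a transgenic line carrying CG9948, a gene known by its annotation number, fused to GFP at the C terminus. Its 2 samples were biological replicates numbered 1 and 3 and formed a single group, so there was no comparison between conditions. The sources used here do not give what drives the fusion, and peaks from whole animals do not show in which tissue the protein was bound.

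The ribosome is built from ribosomal RNA and one copy of most ribosomal proteins, so their genes are transcribed strongly and in step. In flies, many of these genes start at a pyrimidine-rich TCT initiator in place of the usual initiator, and Trf2, a relative of the TATA-binding protein, takes part in their transcription. The DRE, bound by Dref, and Motif 1, bound by M1BP, are elements of many housekeeping promoters and are also frequent there.

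The sequences at the strongest peaks show what kind of DNA lay under the signal. Each line gives the bases within 50 bp of the summit of a peak in the IDR (irreproducible discovery rate) list, on the strand of the gene, from the RefSeq release 6 genome in dm6 coordinates. Capitals mark the DRE (TATCGATA), the core of Motif 1 (GGTCACAC) or CACTG, on either strand. The first 8 are the strongest whose peak overlapped a peak in both replicate lists, with 1 autosomal arm left out. RpL34b and RpL27A held A + T-rich DNA, RpS4 a G + C-richer stretch across its start, and RpL30 was alone among the 8 in holding a marked element.
RpL34b, chr3R:9401321-9401421, minus strand: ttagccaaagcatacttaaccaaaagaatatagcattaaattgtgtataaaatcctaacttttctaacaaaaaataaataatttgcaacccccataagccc
RpL32, chr3R:30046234-30046334, minus strand: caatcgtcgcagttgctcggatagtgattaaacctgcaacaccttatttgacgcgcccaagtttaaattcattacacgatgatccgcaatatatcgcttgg
RpS27, chr3R:25247556-25247656, minus strand: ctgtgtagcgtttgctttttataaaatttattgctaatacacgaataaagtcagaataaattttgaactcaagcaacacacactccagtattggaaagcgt
RpS20, chr3R:20821994-20822094, plus strand: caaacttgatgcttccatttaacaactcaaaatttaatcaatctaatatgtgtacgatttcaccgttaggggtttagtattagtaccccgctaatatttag
RpL27A, chr2L:4458438-4458538, minus strand: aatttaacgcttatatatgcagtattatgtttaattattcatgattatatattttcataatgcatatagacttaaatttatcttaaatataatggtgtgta
RpS4, chr3L:13041756-13041856, plus strand: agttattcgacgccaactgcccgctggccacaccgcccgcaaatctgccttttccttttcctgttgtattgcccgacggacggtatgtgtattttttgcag
RpL30, chr2L:19009226-19009326, minus strand: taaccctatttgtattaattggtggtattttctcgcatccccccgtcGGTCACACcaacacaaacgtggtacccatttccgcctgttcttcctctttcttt
RpS6, chrX:7901681-7901781, minus strand: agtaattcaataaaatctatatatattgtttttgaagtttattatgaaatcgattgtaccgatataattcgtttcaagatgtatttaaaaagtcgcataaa

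A further 5 sequences were picked after their content was seen, because they hold a DRE or Motif 1 core within 50 bp of the summit. RpL28, RpL34a and RpS25 held a DRE, and RpLP0 and RpLP1 held a Motif 1 core. In the last pair the core runs on into CACTG (GGTCACACTG), so there the marked letters overlap.
RpL28, chr3L:3222999-3223099, minus strand: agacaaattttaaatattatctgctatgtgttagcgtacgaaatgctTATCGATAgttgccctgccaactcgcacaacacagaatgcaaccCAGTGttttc
RpL34a, chr3R:26059295-26059395, minus strand: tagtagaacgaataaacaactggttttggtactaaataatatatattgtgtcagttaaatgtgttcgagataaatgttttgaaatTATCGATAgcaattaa
RpS25, chr3R:11216321-11216421, minus strand: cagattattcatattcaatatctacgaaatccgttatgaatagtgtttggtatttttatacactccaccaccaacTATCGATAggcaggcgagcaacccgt
RpLP0, chr3L:22075979-22076079, plus strand: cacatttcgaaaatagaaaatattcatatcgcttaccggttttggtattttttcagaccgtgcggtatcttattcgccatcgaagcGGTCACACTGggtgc
RpLP1, chr2L:419896-419996, plus strand: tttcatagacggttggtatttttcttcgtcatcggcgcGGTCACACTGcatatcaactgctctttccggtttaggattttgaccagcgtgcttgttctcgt

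The TCT initiator was looked for at the annotated start itself. The next lines give 30 bases, of which the first 15 lie before the annotated start nearest to the summit, for the members of both sets whose core CTTTC or CTTTT, in capitals, begins within 5 bases of that start. In RpL34b, RpL32, RpS4 and RpLP0 that start is not the canonical start of the annotation, at which they have no such core. RpL30 has the core at its canonical start but not at the start nearest to its summit, so it is not shown. In RpS4 and RpS6 the core began 3 and 2 bases after the start base, and in RpL32 it began 3 bases before it.
RpL34b start, chr3R:9401212-9401241, minus strand: gcgcgaacagggttgccacCTTTCtttcta
RpL32 start, chr3R:30046147-30046176, minus strand: tcacaccaccagCTTTTtcttttcgcttct
RpS4 start, chr3L:13041786-13041815, plus strand: caccgcccgcaaatctgcCTTTTccttttc
RpS6 start, chrX:7901317-7901346, minus strand: tacttcctcctatcggtCTTTTtcaaccct
RpL28 start, chr3L:3222946-3222975, minus strand: tatgtcgggctgccatatttCTTTCcttct
RpS25 start, chr3R:11216273-11216302, minus strand: ggccgtttccgccctccatCTTTCtgcatt
RpLP0 start, chr3L:22076077-22076106, plus strand: tgccgccgccaacttcactCTTTCcgttct
RpLP1 start, chr2L:419937-419966, plus strand: cacactgcatatcaactgctCTTTCcggtt

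Peaks lay at the promoters of most ribosomal protein genes. A gene was counted when a summit fell within 500 bp of any of its starts. In the pooled list, called on both replicates together, 76 of 93 genes had such a peak (81.7%, 95% Wilson interval 72.7 to 88.3), and so did 41.8% of all protein-coding genes. In the IDR list 43 had one (46.2%, 36.5 to 56.3), against 18.0% of all genes. That list held the 7637 strongest pooled peaks, so a place in it does not show a peak in each replicate. The list of replicate 3 held a promoter peak of 76 ribosomal protein genes (81.7%), with 45.8% of all genes. In the list of replicate 1 there were 41 (44.1%, 34.4 to 54.2), with 31.2% of all genes. The lower bound of the ribosomal protein interval was above the share of all genes in each list, by the least in replicate 1. Intervals here cover counting error over genes only, and genes that share a promoter are not independent.

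**Figure D1:**
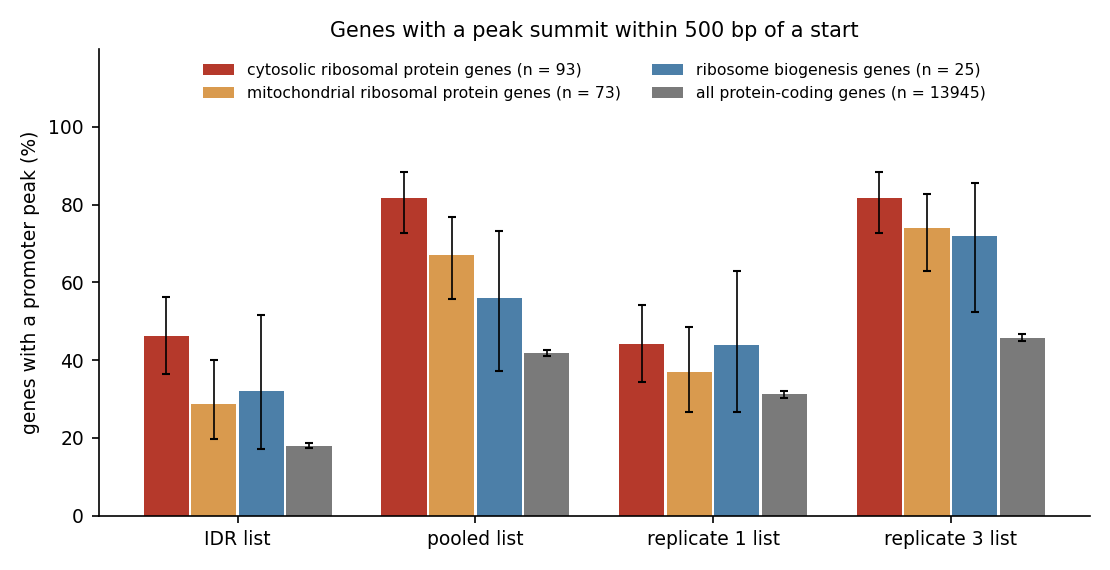
Percent of genes (y axis) with a peak summit within 500 bp of a start in each of the 4 peak lists (x axis), for cytosolic ribosomal protein, mitochondrial ribosomal protein, ribosome biogenesis and all protein-coding genes. Bars start at 0 and whiskers are 95% Wilson intervals. Cytosolic ribosomal protein genes stand at 81.7% in the pooled and replicate 3 lists and at 44.1% in replicate 1.

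Both subunits gave like shares. Small-subunit genes had an IDR promoter peak in 17 of 39 cases (43.6%, lower bound 29.3) and a pooled one in 32 (82.1%). Large-subunit genes had an IDR peak in 26 of 54 cases (48.1%, lower bound 35.4) and a pooled one in 44 (81.5%). The P-stalk, a flexible arm of the large subunit that recruits translation factors, was represented in all its genes. RpLP0 had a pooled signal of 214, with 70.1 in replicate 1 and 149 in replicate 3. RpLP1 had 171 in the pooled list, 30.7 in replicate 1 and 140 in replicate 3. RpLP2 was weaker and outside the IDR list, with 106 in the pooled list, no peak in replicate 1 and 75.1 in replicate 3. The ubiquitin fusion genes, whose products are cut into ubiquitin or a ubiquitin-like protein and a ribosomal protein, had no IDR peak. RpS27A had 100 in the pooled list, no peak in replicate 1 and 63.7 in replicate 3. RpL40 had 33.3, 28.9 and 41.6 in the same lists, while RpS30 had no promoter peak in any.

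The peaks were frequent, but few were strong. Signal here is the authors' value per peak on an unstated scale. Most ribosomal protein genes had a larger value in the pooled list than in either replicate, so levels are compared within a list. Among the 43 ribosomal protein genes of the IDR list the strongest promoter peak had a median signal of 200, with the middle of the genes between 171 and 249 and a highest value of 660. The median percentile in the list was 22.7, against 57.3 over all 2515 genes with an IDR promoter peak. Cut into 5 equal parts from the strongest to the weakest peaks, the IDR list held 1, 2, 6, 16 and 18 ribosomal protein genes, whereas all genes numbered 673, 504, 478, 454 and 406. The weakest part thus held 41.9% of the ribosomal protein genes. In the other lists, which reach to weaker peaks, the order of the medians was the reverse. Among genes with a promoter peak the median was 161 for ribosomal protein genes in the pooled list, against 121 for all. In replicate 1 it was 56.8 against 49.1, and in replicate 3 it was 114 against 85.1.

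The excess over all genes lay at a pooled signal between 50 and 300. Between 200 and 300 there were 16 ribosomal protein genes (17.2%), with 4.30% of all genes, and between 300 and 500 there were 3 (3.23%), with 4.20%. At a pooled signal of at least 100 there were 60 ribosomal protein genes (64.5%), with 24.1% of all genes. At 200 or more there were 21 (22.6%), with 14.8%. At 300 or more the order was turned round, with 5 ribosomal protein genes (5.38%) and 10.5% of all genes. At 500 or more there were 2 (2.15%), with 6.26%, and at 1000 or more there were 0 of 93, with 2.60% of all genes. Likewise, among the 3819 strongest IDR peaks 4 ribosomal protein genes had a promoter peak (4.30%), against 10.2% of all genes.

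**Figure D2:**
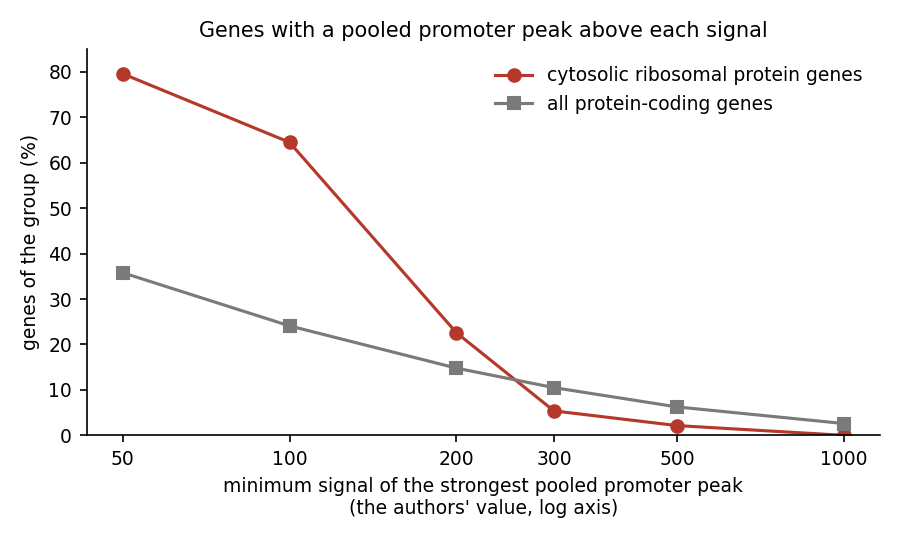
Percent of cytosolic ribosomal protein genes and of all protein-coding genes (y axis) whose strongest pooled promoter peak reaches at least the signal on the x axis, which is logarithmic and in the authors' unit. The ribosomal protein genes lie above all genes at 50, 100 and 200 and below them at 300, 500 and 1000.

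The IDR list drew a line through the ribosomal protein genes at 1 signal level. All 7637 IDR peaks were found in the pooled list with the same place and signal, and exactly 7637 pooled peaks had at least the lowest IDR signal, 149.8. The IDR list was therefore the strongest pooled peaks, and the pooled value of an IDR peak is also its IDR value. Just inside lay RpL8 with a pooled signal of 152, RpS14b and RpS10b with 154, and RpL4 with 155. Just outside lay RpL27 with 144, RpL36 with 139 and RpL12 with 137. The genes named just inside nonetheless had a peak in both replicates. RpL8 had 76.3 in replicate 1 and 85.2 in replicate 3, and RpS14b had 58.9 and 90.6. In the same order of replicates, RpS10b had 37.2 and 125, and RpL4 had 30.4 and 129. The genes next above them were mixed. RpL31 and RpL19, both with a pooled signal of 161, and RpL24 with 164 had a promoter peak in replicate 3 but none in replicate 1. RpL10Ab and RpS23, both with 162, and RpL22 with 164 had a peak in both replicates.

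The strongest peaks belonged to RpL34b and RpL32. RpL34b, which codes for a large-subunit protein and has a paralog described below, had a signal of 660 in the pooled list, 265 in replicate 1 and 410 in replicate 3. Its summit (chr3R:9401371-9401371, gene on the minus strand) lay 145 bp upstream of the start, and 124 bp from the start of the divergent gene CG8132. RpL32, long used in flies as a reference transcript under the name rp49, had 547 in the pooled list, 191 in replicate 1 and 358 in replicate 3, with its summit 123 bp upstream. RpS27, a small-subunit gene, had 435 in the pooled list, 170 in replicate 1 and 275 in replicate 3. Its summit lay 92 bp upstream of its own start and 52 bp from that of Nup37, which codes for a nucleoporin. RpS20 had 371 in the pooled list, 145 in replicate 1 and 230 in replicate 3, with its summit 137 bp upstream. These 4 lay above the 88th percentile in both replicate lists.

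Below them the replicates parted. RpL14 had 309 in the pooled list and 84.8 in replicate 1 but no promoter peak in replicate 3, with its pooled summit 19 bp upstream. RpL28 had 278 in the pooled list and 187 in replicate 3 but none in replicate 1, and RpL7 had 275 and 180 in the same lists and again none in replicate 1. RpL23A, with 259 in the pooled list and 198 in replicate 3, and RpS3A, with 254 and 159, also lacked a replicate 1 peak. RpS3A is the one member on chromosome 4, where the replicate 1 list held 7 peaks in all and the replicate 3 list 196. By contrast RpL23 (271 pooled, 121 in replicate 1, 150 in replicate 3), RpL27A (265, 91.5 and 171) and RpS4 (244, 56.8 and 218) had peaks in both.

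**Figure D3:**
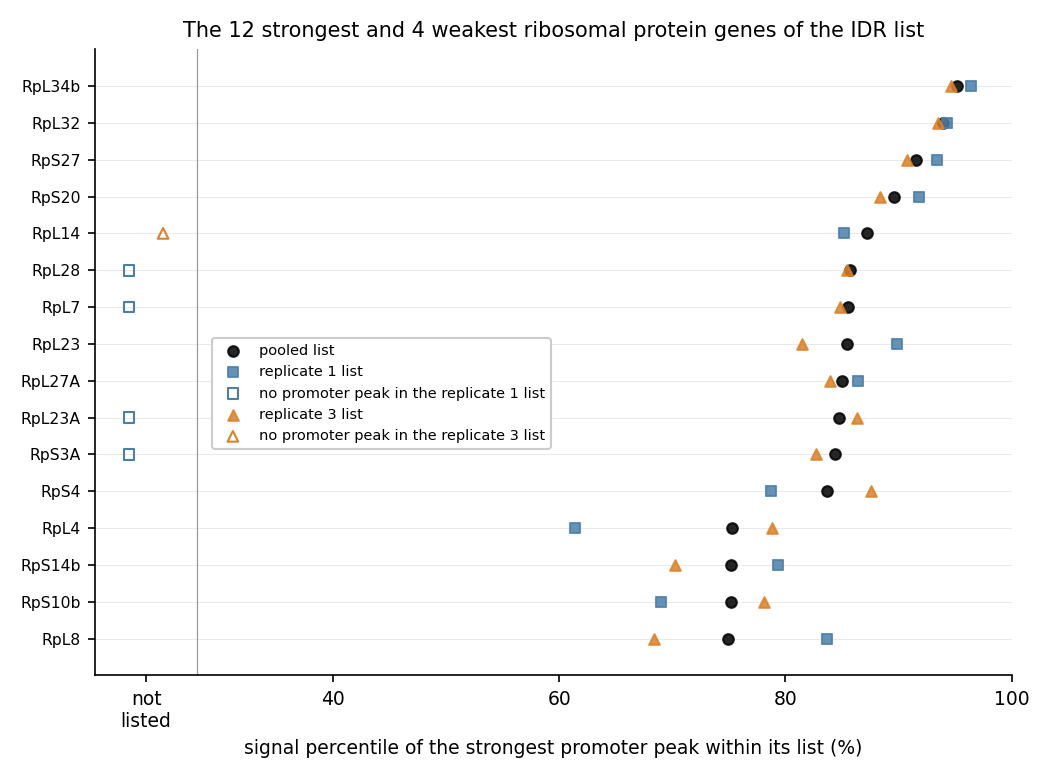
Signal percentile within each list (x axis) of the strongest promoter peak of the 12 strongest and 4 weakest ribosomal protein genes in the IDR list (rows, strongest at the top), with circles for the pooled, squares for the replicate 1 and triangles for the replicate 3 list. Open symbols left of the line mark genes with no promoter peak in that list, 4 for replicate 1 and 1 (RpL14) for replicate 3.

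Replicate 3 held most of the ribosomal protein peaks that replicate 1 held, and as many again. Both replicate lists held a promoter peak of 38 ribosomal protein genes (40.9%), against 22.7% of all genes. Another 38 had one in replicate 3 only (40.9%), against 23.1% of all genes. In replicate 1 only there were 3 (3.23%), RpL14, RpL21 and RpL41, against 8.47% of all genes. Of the 44 distinct IDR peaks at their promoters, 28 had a counterpart in each replicate list that covered 50% or more of the shorter of the pair (63.6%), against 83.9% of the 2060 IDR promoter peaks of all genes. Of the others 14 overlapped a peak of replicate 3 only and 2, at RpL14 and RpL15, a peak of replicate 1 only. For the 38 genes with a peak in both lists the summits were a median of 60 bp apart, against 34 bp over all 3169 such genes, and 16 pairs (42.1%) were within 50 bp, against 60.2%. Among IDR promoter peaks with a signal of 150 to 300, a range set after the data were seen, 24 of 39 ribosomal protein peaks had a counterpart in both (61.5%), against 73.3% of 914.

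Summits at ribosomal protein genes lay closer to the start than those of other genes, and this too differed between replicates. Positions are from the nearest annotated start of a gene, and ribosomal protein genes have a mean of 1.70 starts, against 1.41 over all genes. What this adds to the shares near a start was not tested. In the IDR list 16 of 43 summits were within 50 bp of a start (37.2%, 24.4 to 52.1), against 6.12% of all 2515 genes. The median summit was 78 bp upstream for ribosomal protein genes and 162 bp upstream for all genes. In the pooled list 31 of 76 were that close (40.8%, 30.4 to 52.0), against 13.1%, and the medians were 37 bp and 131 bp upstream. Replicate 3 gave the same share, 31 of 76 (40.8%), against 15.3% of all genes, and a median 9.5 bp upstream, against 117 bp. Replicate 1 gave 8 of 41 (19.5%, 10.2 to 34.0), against 7.61%, and a median 94 bp upstream, against 157 bp. When each replicate was cut to its 7637 strongest peaks, the share was 42.2% against 7.59% in replicate 3, but 1 of 24 (4.17%) against 4.82% in replicate 1. The excess near the start was therefore seen in the pooled list, in replicate 3 and in the full list of replicate 1, but not among the strongest peaks of replicate 1.

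**Figure D4:**
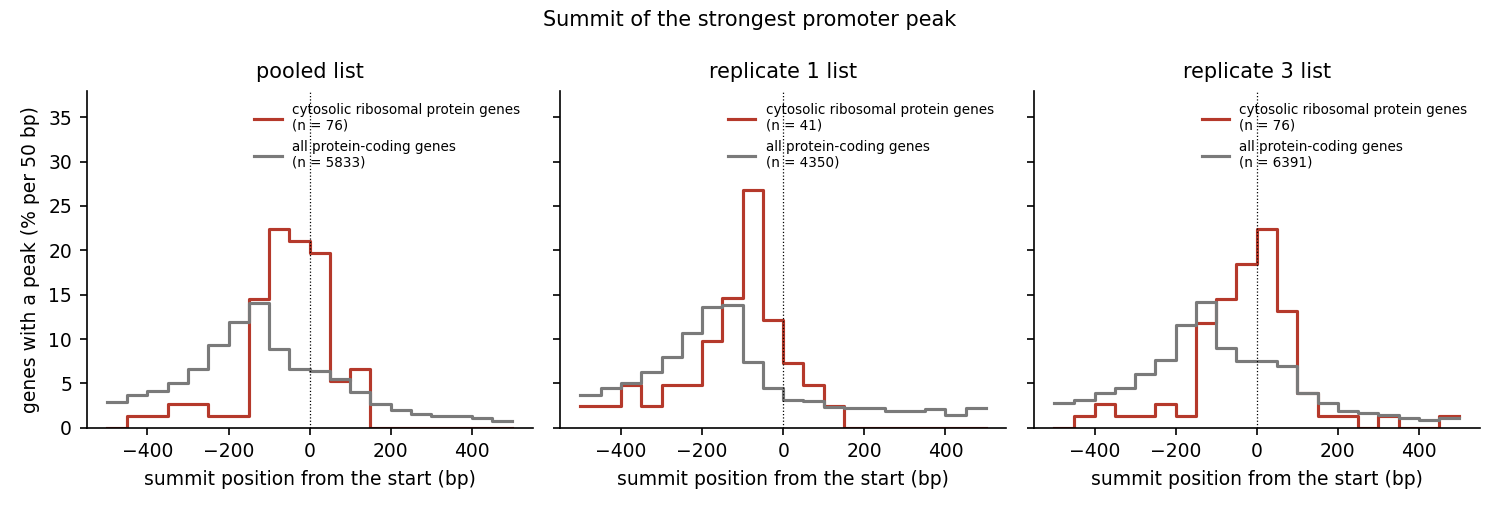
Position of the strongest promoter summit relative to the start (x axis, bp, negative upstream, dotted line at the start) in 50 bp steps, as a percent of the genes with a peak (y axis), for cytosolic ribosomal protein genes and all protein-coding genes in the pooled, replicate 1 and replicate 3 lists. Medians for the ribosomal protein genes are 37, 94 and 9.5 bp upstream in these lists.

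The near-start share was also compared among peaks of like signal. Among IDR promoter peaks with a signal of 150 to 300, 15 of 38 ribosomal protein genes (39.5%) and 89 of 1052 of all genes (8.46%) had the summit within 50 bp. Both shares were higher than in the whole IDR list. The near-start members of the whole list were RpL4, RpL7, RpL14, RpL17, RpL19, RpL24, RpL26, RpL30, RpLP1, RpS4, RpS5a, RpS7, RpS10b, RpS14b, RpS23 and sta, with a median signal of 176. Of these, 15 had a promoter peak in replicate 3, with 13 of its summits within 50 bp, and 11 had one in replicate 1, with 6 within 50 bp. The other 27 had a median signal of 214, and their replicate 1 summits lay a median of 136 bp upstream (18 genes), their replicate 3 summits 83 bp upstream (27 genes). Most summits of ribosomal protein genes were still upstream in the IDR list, 35 of 43 (81.4%, 67.4 to 90.3), against 87.0% over all genes. In replicate 3 it was 42 of 76 (55.3%), against 70.6%. No IDR summit lay in the body of a ribosomal protein gene beyond the promoter window (0 of 93 genes), against 9.48% of all genes. The median gene length was 1320 bp for ribosomal protein genes and 2170 bp for all.

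In the IDR list, summits at ribosomal protein promoters lacked the A + T-rich centre of other promoter peaks on average. A + T content within 50 bp of the summit was 60.8% ± 11.1 (SD, n = 44 peaks) at ribosomal protein promoters and 69.5% ± 8.99 (n = 2060) over all IDR promoter peaks. In flanks of equal length about 200 bp away it was 61.2% ± 6.38 and 57.4% ± 8.29 in the same groups. The summit minus flank difference was -0.360 percentage points ± 10.8 for ribosomal protein peaks, with the summit higher in 23 of 44, and 12.1 ± 11.8 for all, with the summit higher in 1749 of 2060. Each replicate alone gave the same order of groups. The 7637 strongest peaks of replicate 1 gave 1.5 ± 10.3 (n = 25) for ribosomal protein peaks and 12.8 ± 11.2 (n = 1822) for all. Those of replicate 3 gave -0.681 ± 11.7 (n = 48) for ribosomal protein peaks and 11 ± 12.4 (n = 2169) for all. Among peaks of signal 150 to 300 the differences were -0.381 ± 11 (n = 39) for ribosomal protein genes and 8.83 ± 12 (n = 914) for all. In the whole pooled list, which adds weaker peaks, the gap between the groups was smaller. There the difference was -0.611 ± 10.5 (n = 107) for ribosomal protein peaks and 3.70 ± 12.8 (n = 7075) for all, with the summit higher in 47.7% and 58.6% of peaks, and A + T content at the summit was 60.7% and 61.4% in the same groups.

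Position and composition moved together. Ribosomal protein peaks within 50 bp of a start had a summit minus flank difference of -7.98 ± 9.31 percentage points (n = 16), and those farther away 4.0 ± 9.14 (n = 28). For all genes the values were 5.52 ± 12.5 (n = 170) near a start and 12.5 ± 11.6 (n = 1973) farther away, and a peak shared by neighbours could count in both. Around the start itself, from 100 bases before to 50 after it, A + T content was 56.1% ± 6.29 (SD) in the 93 ribosomal protein genes and 58.0% ± 8.46 in all. The lowest single differences were at RpS5a (-25.7), RpS7 (-20.8) and RpS4 (-18.8), all near-start. RpL23 (19.8) and RpL27A (15.8), both with the summit more than 50 bp from the start, were among the high values. RpL32, the second strongest, had a summit at 56.4% A + T and a difference of -6.93.

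**Figure D5:**
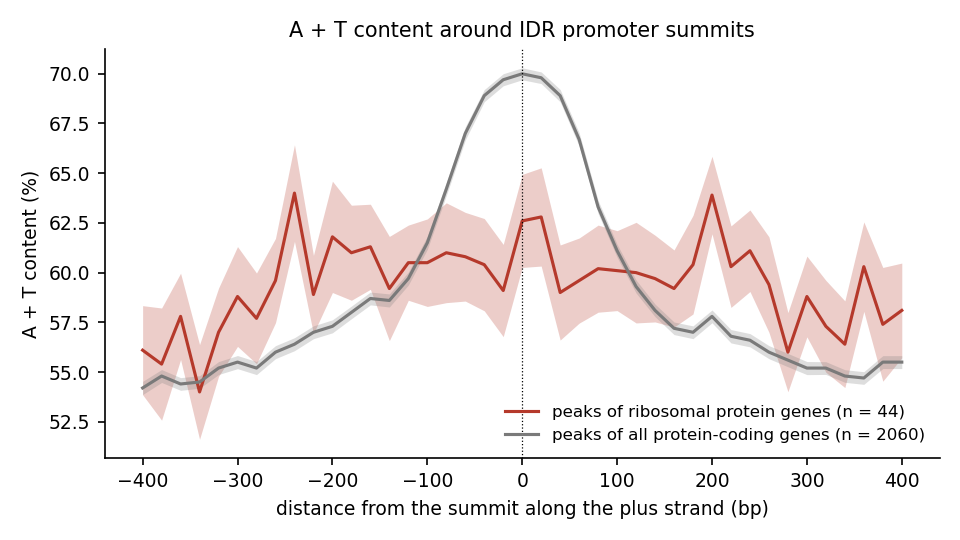
Mean A + T content in 21-base windows (y axis, percent) against distance from the IDR summit along the plus strand (x axis, bp) at the 44 promoter peaks of ribosomal protein genes and the 2060 of all protein-coding genes, with bands of 1 standard error over peaks. At the summit the ribosomal protein genes stand at 62.6% and all genes at 70.0%, where the line of all genes has its top.

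The promoters held elements known for this gene class, with the largest excess for the TCT core. Windows from 250 bases before to 50 after the canonical start of each gene were searched on both strands, except the TCT core, which was read in the direction of the gene. The TCT core (CTTTC or CTTTT) began within 5 bases of the canonical start in 41 ribosomal protein genes (44.1%, 34.4 to 54.2), against 4.11% of mitochondrial ribosomal protein genes and 3.52% of all genes. The first such core began at the annotated start base itself in 1 of the 41. It began 2, 3, 4 or 5 bases after that base in 9, 4, 10 and 9 of them. Within 20 bases, a width chosen after the data were seen, the TCT core was found in 68 (73.1%), against 8.22% and 13.3%. Counted within 5 bases of any annotated start, also chosen after the data were seen, it was found in 57 (61.3%), against 5.48% and 5.13%, with a mean of 1.70 starts per ribosomal protein gene, 1.10 per mitochondrial one and 1.41 over all genes. The DRE was in 28 promoters (30.1%, 21.7 to 40.1), against 20.5% and 8.94%. The Motif 1 core was in 14 (15.1%, 9.18 to 23.7), against 11% and 7.54%. CACGTG, the E-box bound by Myc and Max, was in 11 (11.8%), against 6.85% and 4.26%. In this window TATAAA was found in 45.2% of ribosomal protein genes and 45.3% of all genes, CACTG in 50.5% and 46.2%, and GAGAG in 17.2% and 30.2%. In the shorter window from 100 bases before to 50 after the start TATAAA was less frequent in ribosomal protein genes, with 10 (10.8%, 5.95 to 18.7), against 23.7% of all genes. There GAGAG was found in 8 (8.60%), against 18.3%, and CACTG in 30 (32.3%), against 31.3%.

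The elements were also counted by the presence of a peak, again at the canonical start. The TCT core was present in 20 of the 43 genes with an IDR peak (46.5%), 18 of the 33 with a pooled peak only (54.5%) and 3 of the 17 with no pooled peak (17.6%). Most of these 17 genes are copies or -like genes, described below. The TCT core was present in 7 of the 16 genes with a near-start summit (43.8%) and in 13 of the 27 others with an IDR peak (48.1%). The DRE was present in 11 of the 43 (25.6%), 13 of the 33 (39.4%) and 4 of the 17 (23.5%). The Motif 1 core was present in 7 (16.3%), 5 (15.2%) and 2 (11.8%) of the same groups.

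Right at the summit the elements were still a minority. Within 50 bp of it the DRE lay in 4 of 44 ribosomal protein peaks (9.09%), against 0.825% of all IDR promoter peaks, and the Motif 1 core in 4 of 44 (9.09%), against 0.437%. CACTG lay in 14 (31.8%), against 13.1%, and part of these matches are the ends of Motif 1. In the pooled list CACTG lay in 22 of 107 ribosomal protein peaks (20.6%) and in 18.4% of all, so its excess was not seen there, while the DRE lay in 9.35% against 1.84% and the Motif 1 core in 5.61% against 1.54%. TATAAA lay in 4 of the IDR peaks (9.09%), against 28.3%. Among IDR peaks of signal 150 to 300 the shares were 10.3% against 1.31% for the DRE, 10.3% against 0.985% for the Motif 1 core and 35.9% against 15.9% for CACTG. The counts of 4 are small, and a match is not evidence of binding by any factor.

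Where a ribosomal protein gene has a copy, the peak lay mostly at one of the pair. The 27 members of 13 such families had a pooled peak in 16 cases (59.3%, lower bound 40.7), and the 66 other members in 60 (90.9%, lower bound 81.6). RpS5a had a signal of 182 in the pooled list, 76.9 in replicate 1 and 114 in replicate 3, and RpS5b had no peak in any list. RpS10b had the values given above and RpS10a none, RpS19a had 177, 59.0 and 118 and RpS19b none, and RpL10Ab had 162, 53.3 and 95.3 and RpL10Aa none, in the same order of lists. RpL22 had 164 in the pooled list, 54.4 in replicate 1 and 122 in replicate 3, while RpL22-like had none. In several of these families the copy without a peak is known to be transcribed mainly in the germ line, RpS5b, RpS10a and RpS19b among them.

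Other families were different. Both copies of RpL34 were in the IDR list, RpL34b with the 660 given above and RpL34a with 229 in the pooled list, none in replicate 1 and 189 in replicate 3. RpS14a and RpS14b lie next to each other on X, and RpS14a had 77.8 in the pooled list, none in replicate 1 and 54.7 in replicate 3, below the 154 of RpS14b. RpS15Aa had a pooled signal of 118 and RpS15Ab of 51.6, both outside the IDR list. RpS28b had 127 in the pooled list, RpS28a a peak of 91.2 in replicate 3 only, and RpS28-like none. Neither RpL37-1 nor RpL37-2 had a peak. The sources used here do not say how reads that match both copies were treated, so values of near-identical copies are uncertain.

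The 5 genes named -like had no IDR peak. RpL24 had 164 in the pooled list, none in replicate 1 and 142 in replicate 3, and RpL24-like had none. RpL7 had the 275 given above and RpL7-like 51 in the pooled list, none in replicate 1 and 55.3 in replicate 3, with a summit 436 bp upstream and nearer to another gene. RpLP0-like had a peak in replicate 3 only, at 43.9, against 149 there for RpLP0. The yeast relatives of RpL24-like, RpL7-like and RpLP0-like are ribosome assembly factors and not parts of the finished ribosome. In all, 13 members had no promoter peak in any list (14.0%), against 44.4% of all genes. In symbol order the first were RpL10, RpL10Aa, RpL22-like, RpL24-like, RpL37-1 and RpL37-2.

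Many of the peaks were shared with a neighbour. Of the 43 genes in the IDR list, 19 had a peak that lay in the window of no other protein-coding gene, 24 shared it, and 5 had a summit nearer to the other gene's start. Besides RpL34b and RpS27, these 5 were RpL23, RpS6 and RpL13. The RpL23 summit was 324 bp upstream of its start and 232 bp from that of CG13531. The RpS6 summit (217 in the pooled list, 97.2 in replicate 1, 115 in replicate 3) was 400 bp upstream and 149 bp from the start of bys, which codes for a ribosome biogenesis factor. RpL13 (203, 20.9 and 162) shares a divergent promoter with Dref itself, and the summit lay 117 bp from the RpL13 start and 33 bp from that of Dref. Still, the summit was nearest to the member's own start in 38 of 43 genes (88.4%), against 73.8% over all genes. How many of all genes share an IDR peak was not counted, so the 24 do not show a trait particular to ribosomal protein genes.

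A divergent start within 1 kb went with a higher share of peaks over all genes. In ribosomal protein genes the order was the same, but the intervals overlapped. Among the 56 ribosomal protein genes with such a neighbour 29 had an IDR peak (51.8%, 39.0 to 64.3), against 30.7% of all 5052 genes with one. Among the 37 without, it was 14 (37.8%, 24.1 to 53.9), against 10.9% of 8893. Introns of ribosomal protein genes often hold snoRNA genes, which guide modification of ribosomal RNA, and 28 members held 69 of them. Of these hosts 20 had an IDR peak (71.4%, 52.9 to 84.7) and 27 a pooled one (96.4%). Of the 65 other members 23 had an IDR peak (35.4%, 24.9 to 47.5) and 49 a pooled one (75.4%). By chromosome, IDR peaks were found at 10 of 14 genes on 3L, 8 of 15 on X, 10 of 23 on 3R, 8 of 19 on 2L, 6 of 21 on 2R and the 1 gene on 4. Shares over all genes of each arm and over all snoRNA hosts were not counted. The snoRNA and chromosome counts therefore do not show a trait particular to ribosomal protein genes.

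Mitochondrial ribosomal protein genes and ribosome biogenesis genes had smaller shares in the IDR list and a higher median signal there, though the intervals of the shares overlapped that of the cytosolic genes. The 73 mitochondrial ribosomal protein genes, whose products form the ribosome of the mitochondrion, had an IDR peak in 21 cases (28.8%, 19.7 to 40) with a median signal of 429, above the 200 of the cytosolic genes, and a pooled peak in 49 (67.1%). In the pooled list the order turned round, with a median of 121 for the mitochondrial and 161 for the cytosolic genes. The same medians were 87.2 and 114 in replicate 3, but 81.0 and 56.8 in replicate 1. None of the 21 IDR summits of mitochondrial ribosomal protein genes was within 50 bp of a start (upper bound 15.5%), against 6.12% of all genes. In the pooled list 5 of 49 were (10.2%), against 13.1%, and 6 of 54 in replicate 3 (11.1%), against 15.3%. Of 25 ribosome biogenesis genes, 8 had an IDR peak (32.0%, 17.2 to 51.6) with a median signal of 371, and 14 a pooled one (56.0%). None of these biogenesis summits was within 50 bp of a start, with upper bounds of 32.4% in the IDR and 21.5% in the pooled list. The strongest were eIF6, which keeps the subunits apart until the large one is mature (1880 pooled, 773 in replicate 1, 1090 in replicate 3), and Ns2, a nucleostemin-family GTPase (1810, 631 and 1180). Both exceeded every ribosomal protein gene. NHP2 and nop5, which belong to snoRNA-protein complexes, had 499 and 406 in the pooled list.

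Among 7 genes for regulators of ribosomal protein promoters, 5 had an IDR peak (71.4%, 35.9 to 91.8), a larger share than the 46.2% of the ribosomal protein genes but with overlapping intervals. M1BP, whose product binds Motif 1, had 765 in the pooled list, 226 in replicate 1 and 547 in replicate 3. The Myc antagonist Mnt had 502, 147 and 356, and the Myc partner Max 262, 91.6 and 136, in the same order. Dref had 203 at the promoter it shares with RpL13, and Trf2 had 183 in the pooled list, none in replicate 1 and 157 in replicate 3. Myc itself had 47.9 in the pooled list and Tbp a peak in replicate 3 only, at 34.3.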

How the data were processed

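Both samples are anti-GFP ChIP-seq of whole pupae, placed together by strain, stage and age as labelled. The 4 deposited peak lists (replicate 1, replicate 3, pooled, IDR) are narrowPeak tables on dm6. Per the deposited readme texts they were made against a control, which was not analysed here. Which aligner and peak caller were used is not given in the sources used here. Peak signal is the authors' value, its scale unstated, used for ranks and cut-offs inside each list. No test used the deposited −log10 q-values. The deposited summit offset was added to the peak start. The replicate and pooled lists hold 30000 peaks each, so their length does not measure enrichment, and read depth is unknown.

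Gene starts came from Ensembl release 115 and sequence, promoter windows included, from the RefSeq release 6 genome, 1-based. A gene's strongest summit within 500 bp of any of its starts was used, and a peak could count for neighbours. Groups were described by counts with 95% Wilson intervals beside all genes, with no test. The assignment was tested on simulated peaks. Members, lists and motifs were chosen with earlier results of these data known, so CACTG, TCT and promoter shares are not independent evidence. Named are the 12 strongest and 4 weakest of the IDR list, copies (RpL37-1 and RpL37-2 added later), members in 1 replicate list only, and members whose peak is nearer to another gene. Sequences are those of the 8 strongest with overlap in both replicates, not on 2R, plus 5 chosen after their content was seen. Of 35 listed other pathway genes 32 matched the annotation. Alternatives changed the window, the list length, the replicate, the genes counted and the overlap. Python 3.11.15, NumPy 2.4.6, pandas 2.3.3, SciPy 1.17.1 and matplotlib 3.10.9 were used.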

Additional observations from a re-analysis of the deposited data

How the results depend on the processing

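Of 70 alternatives 52 left the value within bounds and 18 moved it. The bounds were 1.5 times for counts, the Wilson interval for shares, and 1 SD between the replicates analysed alone for medians and means. The values of the replicates analysed alone were judged by an SD made from those same values. Replicates that disagree thus widen that bound, so a value within that SD does not show agreement between them. That SD was 60.8 bp for the median position, so the medians of -130 bp in the stronger IDR peaks, -128 bp in replicate 1 and -42 bp in replicate 3, against -78 bp, count as within it although they differ by over 1.5 times. The strength of the list mattered most. Among the 3819 strongest IDR peaks 4 members had a promoter peak in place of 43 (4.30%, against 10.2% of all genes). All were upstream (100%), with a median percentile of 42.5 among them and a summit minus flank A + T difference of 2.48. Cut to 7637 peaks, the replicate 1 list held 24 members (25.8%, against 16.1% of all genes). The replicate 3 list cut in this way held 45 (48.4%, against 18.5%), and the pooled list 43 (46.2%, against 18.0%). Leaving out 1 replicate gave 24 to 45 members with a peak, 68.9% to 87.5% of summits upstream, medians of -128 to -42 bp from the start, percentiles of 23.5 to 35.7, A + T differences of -0.681 to 1.5 and 4.17% to 42.2% of summits within 50 bp, the lowest being replicate 1 alone. A window of 250 bp gave 39 members (41.9%, against 13.3% of all genes) and one of 1000 bp 45 (48.4%, against 21.8%). Counting the nearest gene only gave 38, for which the share over all genes was not counted. From 100 bases before to 50 after the start the TATA box was found in 10 members (10.8%, against 23.7% of all genes), GAGA in 8 (8.60%, against 18.3%) and CACTG in 30 (32.3%, against 31.3%), and the TCT core within 20 bases in 68. Within 100 bp of the summit the DRE was found in 7 peaks (15.9%, against 3.50% of all), the TATA box in 7 (15.9%, against 42.6%) and the E-box in 3 (6.82%, against 1.70%). No paired analysis was possible because the samples form 1 group. Peak lists give no read counts, so how far depth limits the list of replicate 1 was not tested.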
